A study of Rattus norvegicus with 8 samples.

Results

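The genes described here are 10 markers of Kupffer cells, the resident macrophages of the liver, and of macrophages in general: Gpnmb, C1qa, C1qb, C1qc, Cd68, Cd163, Marco, Clec4f, Adgre1 and Csf1r. They were chosen by name, as all non-control spots of the array that carry one of these gene names, which gave 11 probes for 10 of the 36181 genes or names on the array. The samples were livers of male Wistar rats, 4 labelled control and 4 labelled STL. Control rats had maltodextrin at 3.0 g/kg body weight, and STL rats had butyrate-containing structured lipids by daily gavage at 1.65 g/kg, doses of equal energy. In rats of both groups a resistant hepatocyte protocol of chemical liver carcinogenesis was begun 2 weeks after the start of treatment, and the livers were collected at 8 weeks, so that no group represents an untreated liver. The comparison asks which transcripts differ in such livers when the structured lipids are given. RNA of whole liver tissue was measured. Fewer macrophages, less RNA per macrophage and a change in any other cells that hold these transcripts therefore cannot be told apart.

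Kupffer cells line the sinusoids, where they clear particles, bacteria, worn red cells and haemoglobin from portal blood, and after injury they are joined by macrophages that arise from blood monocytes. CSF1R, the receptor of the growth factors CSF1 and IL34, keeps macrophages alive, and ADGRE1 is an adhesion receptor of mature macrophages. CLEC4F is a lectin made by Kupffer cells, CD163 takes up complexes of haemoglobin and haptoglobin, and MARCO is a scavenger receptor that binds bacteria. CD68 is a glycoprotein of lysosomes, and GPNMB is a transmembrane glycoprotein of macrophages with an active lysosomal system. C1QA, C1QB and C1QC are the chains of C1q, the recognition part of the classical complement pathway, which in most tissues is made by macrophages.

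The probes of Gpnmb and of the C1q chains are shown because the largest differences between the group means were read from them. For C1qa and C1qb the groups overlapped. The sequences run 5′ to 3′ as the scanner files give them, and the file headers name the rn4 build for their positions. The probes of C1qa and C1qc are whole, while of the Gpnmb and C1qb probes, each 60 bases long, the last 30 bases are given. Capitals mark the letters AATAAA, those of the common polyadenylation signal, which the C1qb stretch holds.
Gpnmb (chromosome 4, 77182198 to 77182257): ctgttgttttctacggattattgtaaaatg
C1qa (chromosome 5, 155662578 to 155662637): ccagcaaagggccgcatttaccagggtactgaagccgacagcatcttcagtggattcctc
C1qb (chromosome 5, 155647530 to 155647589): tgttacagaatgggtaAATAAActcttcaa
C1qc (chromosome 5, 155656638 to 155656697): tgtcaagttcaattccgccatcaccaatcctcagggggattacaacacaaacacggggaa
The C1q probes lie within 15.1 kb of each other, with C1qc between C1qb and C1qa. Whether a probe lies in coding sequence or in an untranslated region was not determined.

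Signals are given as log2 of the processed signal relative to the 75th percentile of the same array, called the log2 level below, so that 0 is the level of the 75th percentile and 1 is double that. The 75th percentile was between 304.1 (STL 7) and 604.9 (control 4), and 54.2% to 62.9% of probes on an array were well above background. Control 1 and control 2 were nearly the same array by their values: the SD between them was 1.21 times that expected from the spots of a probe over 2046 repeated probes, against 2.41 to 7.65 in the other 27 pairs of arrays. They were therefore averaged and counted as 1 sample, which gave 3 control and 4 STL samples. Whether both arrays hold RNA of the same liver is not known. Of the 8 columns in the authors' table of the series, 6 matched a different rat's array from the one they were labelled with, always of that group and in 0 cases of the other, so that the number of a rat within its group is not settled. Precision is limited by how few arrays there are, and p-values speak of these samples only. The limma fit also draws the variance of each gene toward that of genes of similar signal. SEs, intervals and p-values therefore rest partly on other genes, and for a gene of wide spread, such as Gpnmb, the interval is narrower than its own spread alone would give.

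All 10 markers were well above background on all 8 arrays, and all 10 were tested among 21872 genes. None of the 10 passed limma with Benjamini-Hochberg adjustment at 0.05, where 0.00457% of all genes passed, 1 gene in all. At an unadjusted limma p under 0.05, 2 of 10 were lower in STL, Gpnmb and C1qc, and 0 were higher, where 18.9% of all genes were past that level, 7.38% lower and 11.5% higher. The groups did not overlap for the same 2 markers, with all STL samples below all controls, as for 5.62% of all genes. The difference was below 0 for 8 of 10 markers, against 42.0% of all genes. The median difference of the markers was -0.13 on the log2 scale, within a range from -1.30 (Gpnmb) to 0.14 (Cd163), and the median of all genes tested was 0.06. Without STL 5 the markers' median was -0.25, and without STL 8 it was -0.07. The count below 0 was 8 without control 4, 10 without STL 5 and 7 when control 1 and 2 entered as separate samples. These 3 counts were added after the values were seen.

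**Figure D1:**
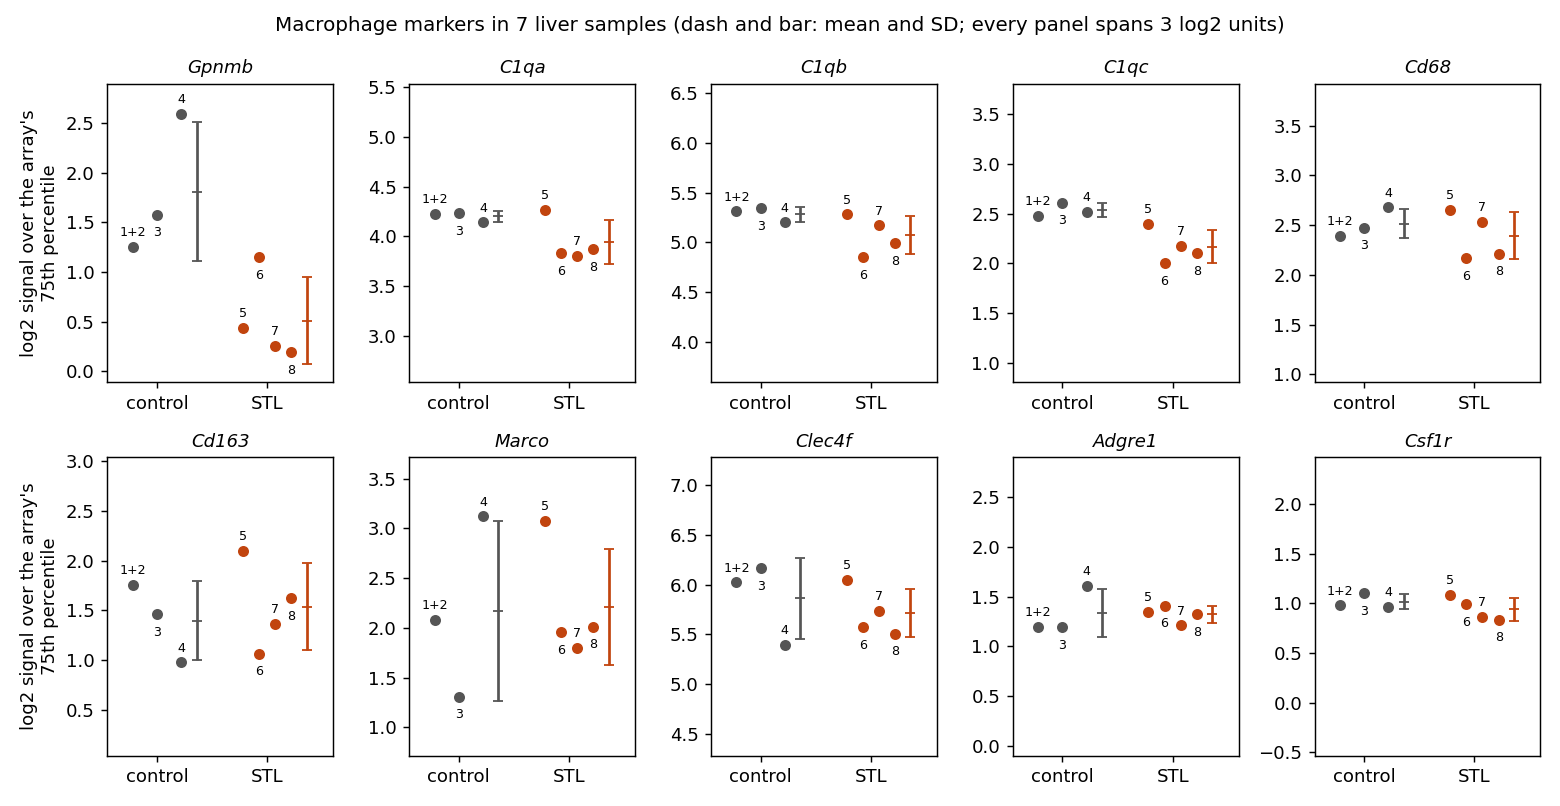
Log2 level (vertical axis, relative to the 75th percentile of the array) of each of the 10 markers in the 3 control samples (grey, with control 1 and 2 averaged) and the 4 STL samples (orange), with numbers naming the rats and a dash and bar for the mean and SD. Every panel spans 3 log2 units around its own middle; Gpnmb shows the widest gap between group means, and Marco has samples of both groups at its top, control 4 at 3.12 and STL 5 at 3.08.

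Gpnmb had the largest difference of the 10. Its log2 level was 1.25 in the average of control 1 and 2, 1.58 in control 3 and 2.59 in control 4, and it was 0.44 in STL 5, 1.15 in STL 6, 0.26 in STL 7 and 0.20 in STL 8. All 4 STL samples were below all controls, but STL 6 lay only 0.10 under the averaged control. Controls had a mean of 1.81 ± 0.70 (SD, n = 3) and STL samples one of 0.51 ± 0.44 (SD, n = 4). The difference was -1.30 (SE 0.34, 95% interval -2.06 to -0.53), so that the signal in STL was lower by a factor of 2.46, and a difference of -1 or lower was found for this 1 marker and for 2.34% of all genes. It did not pass over all genes (limma adjusted p = 0.173), although only 1.27% of the genes tested had a lower difference.

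The spread of Gpnmb between samples was wider than that between spots. The 10 spots of its probe on an array had SDs of 0.06 to 0.11 on the log2 scale, while the SD between control samples was 0.70, wider than for 92.6% of the genes tested. Control 4 held the upper end of that spread. Without control 4 the difference was -0.90 (limma adjusted p = 0.313), and with array weights, which give less influence to arrays that deviate, it was -1.17 and passed (limma adjusted p = 0.0397), in a fit that called 7.04% of all genes. Within the 4 columns of the slide, each with 1 control and 1 STL array, Gpnmb was lower in STL in all 4. The gap was between 0.11 (control 2 and STL 6) and 2.40 (control 4 and STL 8). Every STL array was below every control array, so any pairing would give this count, and it adds nothing to the lack of overlap. Since control 1 and control 2 count as 1 sample, these columns hold 3 distinct controls.

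For each C1q chain the control samples lay close to each other. C1qc, the C chain, was 2.48 in the average of control 1 and 2, 2.61 in control 3 and 2.52 in control 4, and 2.40 in STL 5, 2.005 in STL 6, 2.17 in STL 7 and 2.10 in STL 8. All STL samples were again below all controls, with STL 5 the nearest. Controls averaged 2.53 ± 0.07 (SD, n = 3) and STL samples 2.17 ± 0.17 (SD, n = 4). The difference of -0.37 (SE 0.12, 95% interval -0.63 to -0.10), a factor of 1.29, did not pass over all genes (limma adjusted p = 0.192). With array weights the difference was -0.43 and passed (limma adjusted p = 0.0409), in the fit that called 7.04% of all genes.

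For C1qa, the A chain, the controls were at 4.23, 4.24 and 4.14, and STL 6, 7 and 8 at 3.83, 3.81 and 3.87, while STL 5, at 4.27, was above every control. The groups therefore overlapped through STL 5 alone, and the difference was -0.26 (95% interval -0.56 to 0.05, limma adjusted p = 0.317). For C1qb, the B chain, the controls were at 5.31, 5.34 and 5.20 and the STL samples at 5.28, 4.85, 5.17 and 4.99 in the order 5 to 8. STL 5 lay among the controls, and the difference was -0.21 (95% interval -0.50 to 0.08, limma adjusted p = 0.383), or -0.14 without STL 6. The SDs of C1qa, C1qb and C1qc between controls, 0.05, 0.08 and 0.07, were among the smallest, with 4.85%, 9.58% and 7.90% of all genes below them. The SD between spots of an array was 0.04 to 0.05 for C1qa, with 8 to 9 of 10 spots used, and 0.04 to 0.07 for C1qb, with all 10.

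The receptors that mark resident Kupffer cells showed no difference beyond their spread. Clec4f was 6.02, 6.17 and 5.39 in the average of control 1 and 2, control 3 and control 4, and 6.05, 5.57, 5.73 and 5.51 in STL 5, 6, 7 and 8. Control 4 was the lowest of all 7 samples and the other controls were at the upper end with STL 5. The difference was -0.15 (SE 0.21, 95% interval -0.62 to 0.33, limma adjusted p = 0.717), and it was -0.38 without control 4 and 0.01 without control 3.

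Cd163 was 1.75, 1.46 and 0.97 in the controls in the same order, and 2.10, 1.06, 1.36 and 1.62 in STL 5 to 8. Control 4 was again the lowest and STL 5 the highest, and the other 3 STL samples lay within the control range. The difference was 0.14 (95% interval -0.45 to 0.73, limma adjusted p = 0.789), and it was -0.07 without control 4 and -0.05 without STL 5.

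Marco was 2.08, 1.31 and 3.12 in the controls, and 3.08, 1.96, 1.80 and 2.01 in STL 5 to 8. Control 4 and STL 5 stood above the other samples, and control 3 stood below them. The SD between controls was 0.91, wider than for 96.4% of all genes, and the difference of 0.04 had a 95% interval of -0.94 to 1.03 (limma adjusted p = 0.966). Its sign turned in 6 of 23 alternative fits, among them median scaling, quantile normalization and normexp, and it was -0.39 without control 3, 0.52 without control 4 and -0.25 without STL 5.

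The general macrophage markers also showed no difference beyond their spread. Cd68 was 2.39, 2.47 and 2.68 in the controls and 2.65, 2.17, 2.53 and 2.21 in STL 5 to 8, with STL 5 and STL 7 inside the control range and STL 6 and STL 8 below it. The difference was -0.12 (95% interval -0.46 to 0.21, limma adjusted p = 0.662), and it was -0.04 without control 4, -0.05 without STL 6, -0.06 without STL 8 and -0.21 without STL 5. Adgre1 was 1.19, 1.19 and 1.61 in the controls and between 1.21 and 1.41 in STL. All STL samples fell between control 3 and control 4, and the difference was -0.01 (95% interval -0.31 to 0.29, limma adjusted p = 0.975), with a sign that turned in 7 of 23 alternative fits.

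Csf1r, by the probe of accession-matched RefSeq sequence, was 0.98, 1.10 and 0.97 in the controls and 1.08, 0.99, 0.86 and 0.83 in STL 5 to 8. STL 7 and STL 8 were below the controls and the others within their range, and the difference was -0.07 (95% interval -0.32 to 0.18, limma adjusted p = 0.728). It was -0.03 without control 3, -0.04 without STL 8, -0.05 without STL 7 and -0.12 without STL 5. Its interval leaves out a change as large as the point estimates of Gpnmb or C1qc. The other Csf1r probe, designed on a predicted transcript, was on none of the arrays well above background, with a signal of 4.04 to 12.2.

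**Figure D2:**
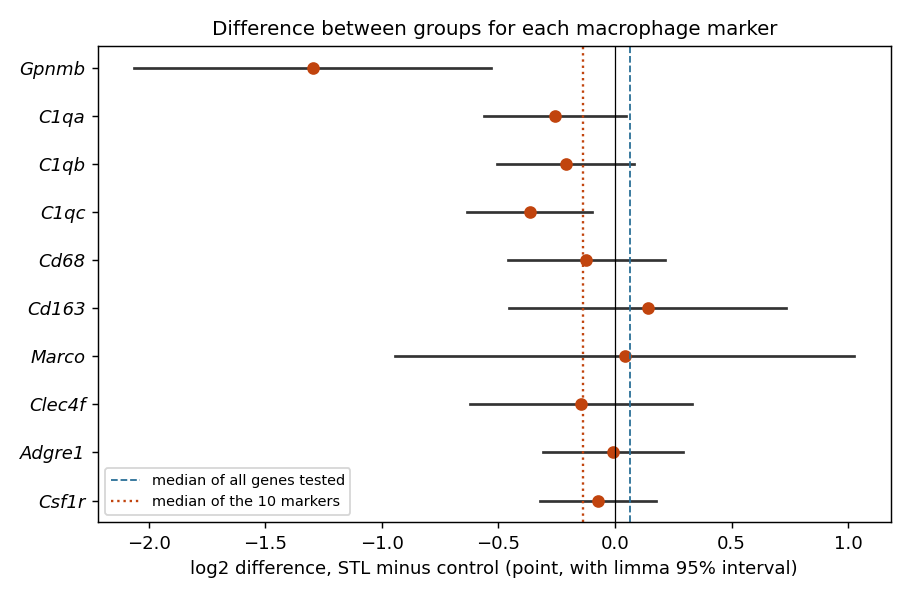
Log2 difference, STL minus control, for each of the 10 markers (horizontal axis; points, with 95% intervals from limma over 3 control and 4 STL samples). The intervals of Gpnmb (-2.06 to -0.53) and C1qc (-0.63 to -0.10) leave out 0 before adjustment for 21872 genes, and the dotted and dashed lines mark the medians of the markers (-0.13) and of all genes tested (0.06).

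The markers did not share an order of the livers. Control 4 was the highest of the 7 samples for 4 markers, Gpnmb, Cd68, Marco and Adgre1, and the lowest for 2 others, Cd163 and Clec4f. Control 3 was the highest for 4, C1qb, C1qc, Clec4f and Csf1r, and the lowest for Marco. STL 5 was the highest for C1qa and Cd163, while STL 6 was the lowest for C1qb, C1qc and Cd68. The averaged control 1 and 2 was the highest for 0 markers.

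Differences between markers within a liver show the same. Gpnmb minus Cd68 on the log2 scale was -1.14, -0.90 and -0.09 in the averaged control, control 3 and control 4, and -2.22, -1.02, -2.28 and -2.02 in STL 5 to 8. Relative to Cd68, Gpnmb was therefore lower in STL 5, 7 and 8 than in any control, while STL 6 lay between the averaged control and control 3. Gpnmb minus the mean of the C1q chains was -2.75, -2.49 and -1.36 in the controls and -3.55, -2.41, -3.46 and -3.46 in STL 5 to 8, and STL 6 again lay inside the control range. Marco minus Clec4f ran from -4.86 in control 3 to -2.27 in control 4, and the 4 STL samples, at -3.93 to -2.97, fell between them. These differences are compared between livers only, since the levels of different probes cannot be set against each other.

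**Figure D3:**
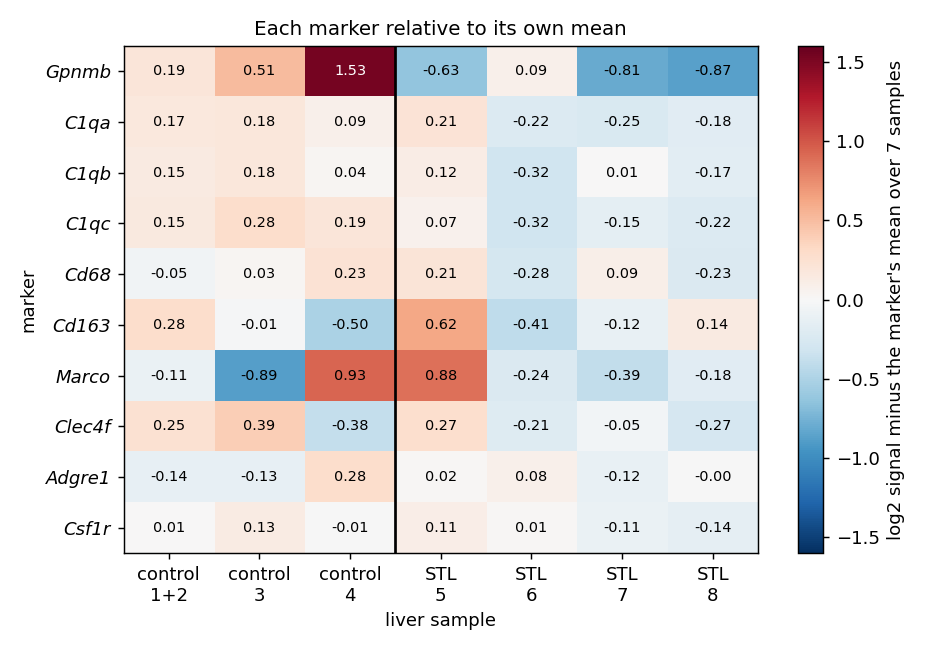
Log2 level of each marker (rows) in each of 7 liver samples (columns, controls left of the line), minus the mean of that marker over the 7 samples; red is above and blue below the mean. Control 4 is at 1.53 for Gpnmb and at -0.38 for Clec4f, and STL 5 is at 0.88 for Marco and -0.63 for Gpnmb, so that high and low livers differ from marker to marker.

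Other macrophage genes were read from 11 lists, with the markers above left out. Of 112 genes tested, 69 were lower and 43 higher in STL, the median difference was -0.08, and 0 passed limma with adjustment over all genes. Below 0 were thus 61.6% of these genes, against 42.0% of all genes. At an unadjusted limma p under 0.05, 20 of the 112 were lower and 8 higher, where 7.38% of all genes were lower and 11.5% higher. Of the 11 lists, that of monocyte-derived and lipid-associated macrophage genes stood lowest, with a median of -1.06 over 10 genes tested. Of these genes 9 were lower, 6 of them at an unadjusted limma p under 0.05. Without control 4 its median was -0.68, with 9 of 10 lower. Such a fall was not particular to this list. Lists outside macrophages, described below, had medians of -1.54 (proliferation), -1.21 (mast cell) and -1.04 (cholangiocyte), and the hepatocyte list had one of 0.35. Medians of so few genes are uncertain. The mast cell list held 4 genes, from -2.34 (Cpa3) to 0.53 (Fcer1a), and the proliferation and cholangiocyte lists held 5 each. For the proliferation gene Ccnb1 the averaged control, at -2.12, was below all STL samples. Plin2, which codes for a coat protein of lipid droplets, was 2.82 ± 0.15 (SD, n = 4) in STL and 3.69 ± 0.16 (SD, n = 3) in the controls, a difference of -0.87 (limma adjusted p = 0.106). Fabp5, a fatty acid binding protein, differed by -1.57 (limma adjusted p = 0.166). For both genes all STL samples were below all controls, as for 5.62% of all genes, and both were named as the 2 of smallest p in the list. Hepatocytes also express Plin2, and bile duct cells Spp1, so the monocyte-derived and lipid-associated list is not specific to macrophages. Ccr2, the chemokine receptor of blood monocytes, was on none of the arrays well above background.

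In other members of that list control 4 or STL 6 stood out. They are named here after their values were seen. Trem2, a lipid receptor of macrophages, was -2.75, -2.50 and -0.47 in the averaged control, control 3 and control 4, and -3.47, -2.68, -2.99 and -3.48 in STL 5 to 8. Control 4 stood far above all others and STL 6 overlapped the controls, and the difference was -1.24 (limma adjusted p = 0.245). Mmp12, macrophage elastase, was -1.49, 0.19 and 0.72 in the controls and -4.29, -0.80, -2.85 and -4.57 in STL 5 to 8, with STL 6 above the averaged control (difference -2.94, limma adjusted p = 0.182). Mmp12 was well above background on 7 of 8 arrays, so the size of its difference is uncertain. Cx3cr1, the fractalkine receptor, was the 1 member higher in STL, by 0.30 (limma adjusted p = 0.444).

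The other Kupffer cell identity genes went both ways, with 6 of 11 higher, 5 lower and a median of 0.04. Clec1b, a C-type lectin, was 1.22 ± 0.28 (SD, n = 4) in STL and 0.57 ± 0.25 (SD, n = 3) in the controls, and Il18bp, the binding protein of interleukin 18, was -0.59 ± 0.12 against -0.05 ± 0.24. The groups overlapped in neither gene, and neither passed (limma adjusted p = 0.179 for both, differences of 0.64 and -0.53). In the general macrophage and myeloid list 10 of 14 were lower, with a median of -0.07. Its leading genes differed in opposite directions, Mpeg1, perforin-2 of macrophages, by 0.53 and Fcer1g, the signalling chain of Fc receptors, by -0.32 (limma adjusted p = 0.185 and 0.198).

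Among CSF1R ligands and macrophage transcription factors the median was -0.03, with 5 of 9 lower. Csf1, a ligand of CSF1R, differed by -0.77 (limma adjusted p = 0.179). Monocyte chemokines had a median of -0.43 with 5 of 7 lower, Cxcl16 at -0.90 and Ccl3 at -0.45, and MHC class II genes a median of -0.18 with 8 of 9 lower, RT1-Db1 at -0.74 and RT1-DMb at -0.56. The limma adjusted p of these 4 genes was between 0.201 and 0.215.

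The complement partners of C1q had a median near 0. In that list, with the proteases, inhibitors and receptors of complement, 8 of 12 genes were lower with a median of -0.01, and its leading genes were higher, Serping1, the C1 inhibitor, by 0.47 and C3 by 0.32 (limma adjusted p = 0.328 and 0.362). Most of these are made by hepatocytes. Lysosome and MITF-TFE genes had a median of 0.04 with 10 of 16 higher, Lamp2, a lysosomal membrane protein, by 0.52 and the cholesterol exporter of lysosomes, Npc1, by 0.36 (limma adjusted p = 0.184 and 0.253). Scavenger and efferocytosis receptors had a median of -0.08 with Colec12 at -1.47 and Scara5 at -1.07, Fc receptors -0.11 with Fcgr3a at -0.44 and Fcgr1a at -0.23, and haem and iron handling genes 0.04 with Slc48a1, a haem transporter, at -0.63 and Blvrb, a biliverdin reductase, at 0.43. None of these passed.

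**Figure D4:**
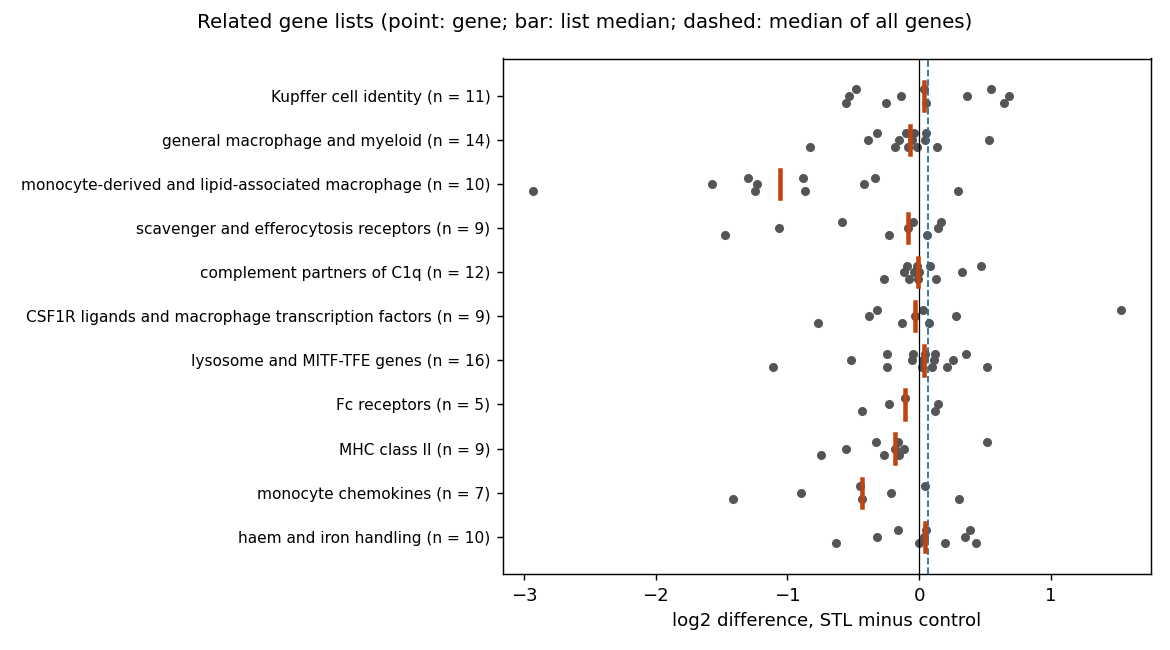
Log2 difference, STL minus control (horizontal axis), of each gene tested in 11 lists of related genes (points), with the list median as a bar, a line at 0 and a dashed line at the median of all genes (0.06). The monocyte-derived and lipid-associated list has its median at -1.06, and the medians of the other lists lie between -0.43 and 0.04.

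Marker levels of other cell types are given for the same livers. None of their genes tested passed limma with adjustment over all genes, and their part in the values above was not tested. Summed signals are given in multiples of the 75th percentile and are ruled by the brightest genes of a list. The sum over 9 stellate and matrix genes was 47.8 to 98.9 in the controls and 30.9 to 44.3 in STL, with 8 of 9 lower, and over 5 proliferation genes it was 1.82 to 9.43 against 1.45 to 2.28, with 5 of 5 lower. That over 5 cholangiocyte genes was 3.50 to 8.76 against 2.11 to 4.40, with 4 of 5 lower. In all 3 lists control 4, the liver with the highest Gpnmb, was also the highest. For proliferation this rested on little. Control 3 was above control 4 in Top2a, Cdk1 and Ccna2 and below it in Mki67 and Ccnb1. The averaged control, at 1.82, lay within the STL range of that sum. The sum over 8 hepatocyte genes was 1650 to 2260 in the controls and 2290 to 3360 in STL, with 7 of 8 higher and control 4 the lowest. That over 7 sinusoidal endothelial genes was 50.1 to 70.4 against 67.6 to 98.0, with 4 of 7 lower.

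Markers of lymphocytes and other blood cells were summed in the same way. The sum was 1.26 to 1.41 in the controls and 1.20 to 1.44 in STL for 4 T cell genes, with Cd3e and Cd2 on none of the arrays well above background. It was 0.276 to 0.304 against 0.308 to 0.341 for 3 B cell genes, with Ms4a1 on none well above background, and 0.503 to 0.825 against 0.785 to 1.22 for 3 NK cell genes, with Ncr1 and Klrb1 on none well above background. For 3 neutrophil genes it was 0.873 to 2.16 against 0.524 to 1.31, with Mpo on none well above background, for 4 mast cell genes 1.49 to 2.36 against 1.29 to 1.71, for 3 dendritic cell genes 2.40 to 3.01 against 2.20 to 3.42, with Xcr1 and Ccr7 on none well above background, and for 4 erythroid genes 2.54 to 3.24 against 1.90 to 4.96. Higher in STL were 2 of 4 T cell, 2 of 3 B cell, 3 of 3 NK cell, 1 of 3 neutrophil, 1 of 4 mast cell, 1 of 3 dendritic cell and 2 of 4 erythroid genes. The median difference was -0.66 for the neutrophil and -1.21 for the mast cell list, whose sum is ruled by Kit (difference -0.21). Cpa3, the carboxypeptidase of mast cells, differed by -2.34 (limma adjusted p = 0.173), with 5 of 8 arrays well above background, and Mcpt1, a mast cell protease, by -2.20 (limma adjusted p = 0.165). For both, named after their values were seen, all STL samples were below all controls and control 4 was the highest, and neither passed. Since Cpa3 was near background on some arrays, the size of its difference and its lack of overlap are uncertain. Fcer1a, of the same list, went the other way by 0.53 (limma adjusted p = 0.185), with all STL samples above all controls. Of all genes, 5.62% had all STL samples below all controls and 11.2% had them above.

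The genes with the pattern most like that of Gpnmb were found by the root mean square of the differences between log2 levels, each gene centred on its mean over the 7 samples, among 14234 genes with a RefSeq-matched name. They were Srxn1, sulfiredoxin, at 0.12, Tgfb3, a growth factor of the TGF-beta family, at 0.13, Cpxm2, a carboxypeptidase-like protein, at 0.13, and Tes, a LIM domain protein, at 0.15 (differences between the groups of -1.40, -1.25, -1.52 and -1.29, none past the limma threshold). The nearest of the other 9 markers, C1qc, was at 0.69 and ranked 2582. This measure counts the size of the differences as well as their order, and C1qc ranged over 0.61 against 2.40 for Gpnmb. A marker of so much smaller range lies far from Gpnmb whatever its order of samples. For the mean of the C1q chains the nearest genes were Wdr44, Vps35l, Map3k7cl and Mnda, the last a nuclear protein of myeloid cells, at 0.06 to 0.09. C1qa and C1qc lay 0.09 apart, and C1qa ranked 6 among the genes nearest to C1qc. In turn C1qc ranked 13 for C1qa and 15 for C1qb. Genes of small range lie close to many others: C1qa, 0.14 from Csf1r, ranked only 1308 among its neighbours. For Clec4f they were LOC103693313, Tlr4, the receptor of bacterial lipopolysaccharide, Prxl2c and Rig1, at 0.09 to 0.11. All values of likeness rest on 7 samples of the same slide and are given as a description.

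Promoter sequences were matched for 9 of the 10 markers, all but C1qc, in RefSeq windows of 300 bases of the GRCr8 assembly, from 250 bases before to 50 after the gene start. They are shown for Gpnmb, C1qb and Cd68, which differed between the groups by -1.30, -0.21 and -0.12, and only the 120 bases before the start are given. Capitals mark a match on either strand to TCACATGA, called the M-box, which MITF and TFE factors bind, to TGAGTCA, which AP-1 binds, or to GAGGAA, a core of the sites of the macrophage factor PU.1.
Gpnmb (chr4:79341008-79341127, plus strand): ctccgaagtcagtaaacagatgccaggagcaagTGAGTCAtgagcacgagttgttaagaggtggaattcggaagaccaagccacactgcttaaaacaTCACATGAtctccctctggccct
C1qb (chr5:154407828-154407947, minus strand): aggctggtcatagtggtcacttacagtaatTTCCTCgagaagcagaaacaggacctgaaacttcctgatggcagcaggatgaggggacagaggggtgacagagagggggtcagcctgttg
Cd68 (chr10:54882442-54882561, minus strand): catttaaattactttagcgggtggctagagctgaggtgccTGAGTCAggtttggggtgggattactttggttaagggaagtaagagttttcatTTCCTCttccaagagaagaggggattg
Over the whole window the M-box letters were found in 1 of 9 markers, Gpnmb, and in 1.13% of 27457 promoters. TGAGTCA was found in 2 of 9, Gpnmb and Cd68, against 4.53% of promoters. GAGGAA was found in 6 of 9, Gpnmb, C1qb, Cd68, Marco, Adgre1 and Csf1r, against 27.5% of promoters. A match of letters describes the sequence and does not show binding.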

How the data were processed

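Cy3-labelled total RNA of liver was hybridised to 8 1-colour Agilent arrays, labelled as 1 per rat. Per the file headers they were on 1 slide with 1 scan time. The deposited files give spot intensity made with Agilent Feature Extraction, version 11.5.1.1 per the file headers and 10.7 per the submitters' processing notes; processed signals are background-subtracted and detrended, and 0 non-control spots were saturated. The authors' table of the series gives linear intensity, already scaled between arrays (rule not given in the sources used here), with column medians of 42.1 to 48.9.

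Of 62976 spots per array, 58717 non-control spots held 45598 probes. Spots flagged as outliers were left out, spots of a probe were averaged, and log2 values were taken minus the 75th percentile of the array. Probes were named by RefSeq accession (21109), symbol (6684), synonym (424) or the name in the file (17381). Each gene was read from its brightest probe, and it was tested if 4 or more of the 8 arrays had it well above background. The median difference of all genes was 0.06, with 0.02 under median scaling and 0.12 with normexp.

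Groups were compared with limma 3.58.1 (R 4.3.3; lmFit, eBayes with an intensity trend, two-sided, Benjamini-Hochberg over all genes tested, threshold 0.05), and the fit was tested on simulated data. Lists took at most 4 genes past the threshold, or else the 2 of smallest p (1 gene so chosen is not reported here); likeness took 4 genes per target. Markers, lists and the averaging of control 1 and 2 were chosen with earlier results of these data known. Alternatives covered scaling, background correction, filters, probes, spots, the fit, slide position, the series table and each array left out. Python 3.11.15, pandas 2.3.3 and matplotlib 3.10.9 read the files and drew the plots.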

Additional observations from a re-analysis of the deposited data

Results flagged for a closer look

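In the STL group of 4 samples, STL 5 stood apart from the others for C1qa and for Marco. Its gap to the nearest STL sample, divided by the range of the group, was 0.863 for C1qa (4.27 against 3.81 to 3.87) and 0.833 for Marco (3.08 against 1.80 to 2.01), above Dixon's critical value at 95% for 4 samples. Both are high in STL 5. With 10 markers examined, chance flags about 1 group in 20, and the cause was not tested.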

How the results depend on the processing

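Gpnmb, C1qa, C1qb, C1qc, Cd68 and Csf1r were lower in STL in each of 23 alternative fits, and markers past the threshold numbered 0 in all of them but array weights, where 2 passed, Gpnmb (-1.17) and C1qc (-0.435). Adgre1 turned to 0.0255 with the 8 arrays as samples, with the slide column as a replicate block and with the slide row as a block, to 0.0944 with array weights and to 0.0565 in the series table. Marco turned to -0.00344 with median scaling, -0.0127 with quantile normalization, -0.00837 with normexp and -0.00255 without control 1 and 2. With 1 array left out, the range was -0.0711 to 0.297 for Cd163, -0.389 to 0.516 for Marco, -0.381 to 0.0067 for Clec4f, -0.078 to 0.129 for Adgre1, -0.121 to -0.0315 for Csf1r, -0.281 to -0.136 for C1qb, -0.21 to -0.0419 for Cd68, and 1 to 45 for the count of all genes past the threshold, which was 3 without control 3 and 45 without STL 6. That count was 21 with 8 arrays as samples, 2 with the slide row block, 1539 with array weights, 78 in the series table and 205 without control 1 and 2, against 1. The cause of these shifts was not tested.

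Within slide columns (values with no test), the differences that moved by more than 1 SD were, in column 1, 0.0577 for C1qa, -0.0382 for C1qb, -0.0965 for C1qc, 0.239 for Cd68, 0.968 for Marco and 0.0816 for Csf1r. In column 2 they were -0.105 for Gpnmb, -0.454 for C1qb, -0.758 for Cd163, -0.494 for Clec4f, 0.234 for Adgre1 and 0.0298 for Csf1r. In column 3 they were -0.431 for C1qa and -0.238 for Csf1r, and in column 4 -2.40 for Gpnmb, -0.464 for Cd68, 0.646 for Cd163, -1.11 for Marco and -0.287 for Adgre1. Between the control and the STL array of a column, deviations from the group means correlated over genes at 0.194, -0.24, 0.056 and -0.095. Deviations within a group depend on each other, and control 1 and control 2 were nearly the same array. Whether the column pairs the samples was therefore not settled. The column block left the count of genes past the threshold at 1.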
